A study of Mus musculus with 84 samples.

Results

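The cytosolic sulfotransferase genes Sult1e1, Sult1a1, Sult1b1, Sult1c2, Sult1d1, Sult3a1 and Sult5a1 were followed through 7 mouse tissues. They are 7 of the 49671 genes in the count table, and 7 of the 21 mouse genes named Sult when pseudogenes are left out. Their rows were found by gene symbol. They were chosen because earlier results from these libraries showed Sult1e1 and its relatives to differ between ob/ob and WT liver and fat, so the genotype differences in those 2 tissues are given as a description with no test. The libraries are bulk RNA-seq of liver, epididymal fat, aorta, heart, skeletal muscle, hippocampus and hypothalamus from 12 mice in 4 groups of 3: WT on a normal diet (ND), WT on a high-fat diet (HFD), ob/ob on ND and ob/ob on HFD. ob/ob mice carry a leptin gene mutation in every cell and make no functional leptin, so they become obese on either diet. Dissection was at 20 weeks, which the labels give neither as an age nor as a time on diet. Sex, strain and diet composition are not given in the sources used here. All 12 mice gave epididymal fat, however, a depot that only males have. The 84 libraries, 1 per mouse and tissue, held 10499528 to 17040790 counted fragments each.

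Sulfotransferases move a sulfate group from the donor PAPS onto small molecules, which makes steroids, phenols and amines more soluble and in most cases inactive. Sulfation is opposed by sulfatases, and it competes with glucuronidation for many of the same substrates. Liver is the main site of this chemistry, and several mouse sulfotransferases are known to be expressed at different levels in male and female liver. Sult1e1 encodes oestrogen sulfotransferase, the enzyme that inactivates oestrogens at low concentrations. Sult1a1 encodes the phenol sulfotransferase, Sult1b1 an enzyme that takes thyroid hormones, Sult1d1 one that takes catecholamines and Sult3a1 one that takes amines. Sult1c2 belongs to the branch that handles phenols and foreign compounds, and the substrate of Sult5a1 is not well known.

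Sult1e1, Sult1d1 and Sult1b1 are neighbours on the minus strand of chromosome 5 (GRCm38): Sult1e1 spans 87575969 to 87591594, Sult1d1 spans 87554645 to 87569027 and Sult1b1 spans 87513339 to 87538195. Sult1a1 lies on chromosome 7 (126672865 to 126676432), Sult5a1 on chromosome 8 (123140192 to 123158315), Sult1c2 on chromosome 17 (53829637 to 53846339) and Sult3a1 on chromosome 10 (33863935 to 33879475). The 250 bases upstream of the transcript start are shown for 3 of the members that passed the count filter in liver: Sult1e1, shown because it was higher in ob/ob, Sult5a1 because it was lower, and Sult1c2 because it followed diet in WT mice. The sequences are from RefSeq (GRCm38.p6) and read 5′ to 3′ toward the gene, with any match to the searched motifs in capitals.
Sult1e1 (chr5:87591612-87591861, minus strand): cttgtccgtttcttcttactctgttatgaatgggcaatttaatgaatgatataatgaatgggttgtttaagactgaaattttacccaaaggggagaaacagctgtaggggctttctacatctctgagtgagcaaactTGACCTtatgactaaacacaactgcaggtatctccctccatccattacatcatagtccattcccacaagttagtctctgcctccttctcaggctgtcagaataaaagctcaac
Sult5a1 (chr8:123158281-123158530, minus strand): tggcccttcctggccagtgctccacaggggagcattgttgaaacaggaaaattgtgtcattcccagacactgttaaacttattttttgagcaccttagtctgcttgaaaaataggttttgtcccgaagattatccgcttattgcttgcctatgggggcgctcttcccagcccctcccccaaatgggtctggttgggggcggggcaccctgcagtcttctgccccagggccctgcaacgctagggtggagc
Sult1c2 (chr17:53845959-53846208, minus strand): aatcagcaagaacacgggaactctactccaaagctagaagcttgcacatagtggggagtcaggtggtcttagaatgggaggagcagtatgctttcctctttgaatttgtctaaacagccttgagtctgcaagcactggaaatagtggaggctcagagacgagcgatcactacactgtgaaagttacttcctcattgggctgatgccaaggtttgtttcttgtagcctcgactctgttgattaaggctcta

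In the window of 300 bases (250 before and 50 after the start) 3 motifs were searched on both strands. The half-site of many nuclear receptors was searched as AGGTCA and was present in 16.3% of 32851 promoter windows of that length. The STAT element was searched as TTCNNNGAA and was present in 8.30%. The TATA box was searched as TATAAA and was present in 13.6%. The Sult1e1 window held 1 receptor half-site, on the strand opposite to the gene and starting 113 bases before the start. Sult1b1, from the same cluster, has 2 RefSeq starts: the window of the first held 2 half-sites, 1 on each strand, and that of the second held none. Sult3a1 held 1 STAT element, TTCTTTGAA, 109 bases before the start, and Sult1d1 held 1 TATA box on the opposite strand, 5 bases after the start. No match overlapped another, and the windows of Sult5a1, Sult1c2 and Sult1a1 held none. A match is a match of letters, and binding was not measured. The RefSeq start of Sult1c2 lies inside the gene's span in the count table, and the window of Sult3a1 (chr10:33857472-33857771, plus strand) lies upstream of that gene's span there, outside it.

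Hepatocyte markers showed the liver libraries to be liver: the 16 markers summed to 90966 to 151250 CPM (counts scaled to library size) there, against 1177 to 8443 CPM in epididymal fat. All 15 adipocyte markers were counted in fat. Of 22 genes of the epididymis, sperm and testis, 12 had no fragment in the fat libraries, among them Lcn5, Adam7 and Gpx5, and the others summed to 0.573 to 26.9 CPM. In fat of WT ND mouse 2 the hepatic Sult2a8 reached 13.4 CPM and Sult1d1 reached 1.71 CPM, which stood above the other 11 fat libraries.

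In liver, Sult1e1 was near the limit of counting in WT mice and abundant in ob/ob mice. WT ND libraries held 0.0864, 0.260 and 0.285 CPM, which is 1 to 3 fragments each. WT HFD libraries held 0.513, 0.673 and 0.966 CPM. The ob/ob ND libraries held 34.3, 14.3 and 28.7 CPM, and the ob/ob HFD libraries 15.4, 78.3 and 46.7 CPM. All 6 ob/ob libraries lay above all 6 WT libraries, and the lowest ob/ob value was above the highest WT value by more than the whole WT range. The fitted genotype difference, the mean over diets of ob/ob minus WT on the log2 scale, was 6.47 ± 0.53 (SE, n = 6 per genotype), an 88.5-fold difference. On ND the ratio of summed CPM was 123 (95% exact counting interval 59.5 to 307, from 1072 against 7 fragments) and on HFD 68.4 (46.5 to 105). Fewer cells with a transcript and less transcript per cell cannot be told apart in bulk tissue.

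Sult5a1 had the opposite pattern in liver. It held 3.20, 4.16 and 3.90 CPM in WT ND libraries and 3.52, 5.23 and 15.1 CPM in WT HFD libraries. In ob/ob liver it held 0.0734, 0.281 and 0 CPM on ND and 0.149, 0.209 and 0.225 CPM on HFD, at most 4 fragments in any library. The genotypes did not overlap, and the genotype difference was -5.06 ± 0.50 (log2, SE), or 33.4-fold. It was -5.81 without ob/ob ND mouse 2, the library with the 4 fragments.

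The remaining liver members differed less between genotypes. Sult1d1 was 159 to 179 CPM in WT ND and 141 to 269 CPM in WT HFD, against 74.3 to 116 CPM in ob/ob ND and 129 to 182 CPM in ob/ob HFD, a difference of -0.62 ± 0.16. Its 3 ob/ob ND libraries lay below every other liver library. Sult1a1, the most abundant member in liver per kilobase of transcript, ranged from 219 to 282 CPM in WT and 245 to 311 CPM in ob/ob (0.23 ± 0.08), with overlapping groups. Sult1b1 ranged from 33 to 71.5 CPM in WT and 26.5 to 44.9 CPM in ob/ob (-0.30 ± 0.17), and these overlapped too. Sult3a1 was too low to pass the count filter. It held 3 fragments over the WT ND libraries, 8 over WT HFD, 36 over ob/ob ND and 10 over ob/ob HFD. The ratio of ob/ob ND to WT ND was 9.64 (95% exact counting interval 3.05 to 48.9), and that of ob/ob ND to ob/ob HFD was 3.54 (1.72 to 7.99). Both intervals pool the fragments of 3 mice and leave out the spread between mice. A single ob/ob ND library held 21 of the 36 fragments, so no genotype or diet effect is read from these ratios.

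**Figure D1:**
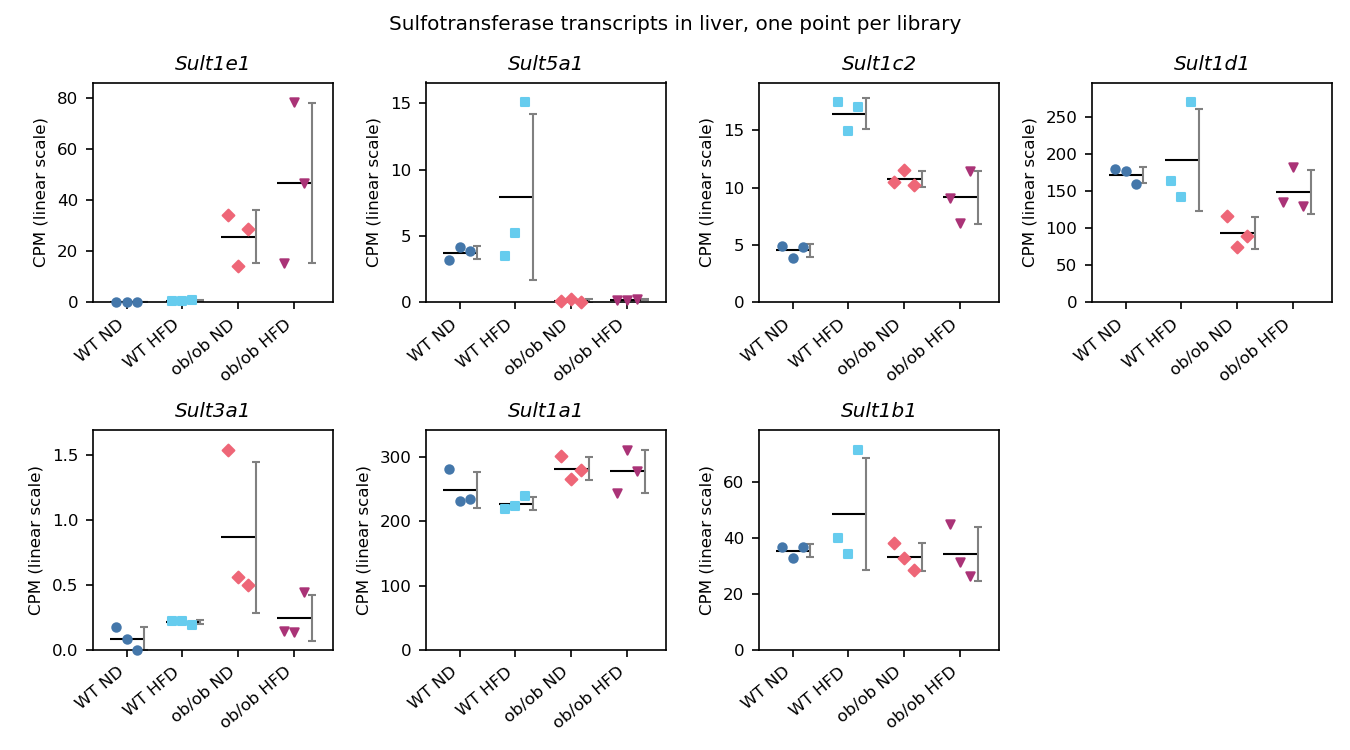
CPM on a linear axis in each liver library for the 7 sulfotransferases, by group (horizontal line, mean; grey bar, SD over 3 libraries). Sult1e1 is near 0 in all WT libraries and 14.3 to 78.3 CPM in ob/ob, Sult5a1 is near 0 in ob/ob, and Sult1c2 is highest in WT HFD at 14.9 to 17.4 CPM.

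For scale, 42.8% of the 13246 genes tested in liver passed an adjusted p of 0.05 for genotype (22.1% higher and 20.7% lower in ob/ob). By the same rule 2 of the 6 members tested were higher, Sult1e1 and Sult1a1, and 2 were lower, Sult5a1 and Sult1d1. Since this contrast chose the members, nothing is read from those counts.

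The diet contrasts are not the contrast that chose the genes, but they use the same libraries. The difference of the diet effects equals the genotype difference on HFD minus that on ND. These tests are therefore not independent of the choice, in liver or in fat. In WT liver Sult1c2 rose on HFD from 4.92, 3.90 and 4.85 CPM to 17.4, 14.9 and 17 CPM. Every HFD library lay above every ND library. The log2 fold change was 1.85 ± 0.18 (SE, n = 3 per group), or 3.61-fold, and the adjusted p was 3.27e-05 (quasi-likelihood test of edgeR). Sult1c2 was the only member of 6 to pass, where 21.8% of all genes did.

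In ob/ob liver Sult1c2 was at an intermediate level on either diet, 10.5, 11.5 and 10.2 CPM on ND and 9.10, 6.88 and 11.5 CPM on HFD. Its diet effect there was -0.23 ± 0.16 (adjusted p = 0.558). The diet effect in ob/ob was lower than in WT by 2.09 ± 0.24 on the log2 scale, written as an interaction of -2.09 with an adjusted p of 0.000399 by edgeR. It was the only member of 6 with such a difference, against 6.17% of all genes. Sult1c2 was thus higher in ob/ob than in WT on ND (1.24 ± 0.18) and lower on HFD (-0.85 ± 0.16), with a mean over diets of 0.19 ± 0.12.

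No other liver member passed for diet. In WT mice Sult1e1 changed by 1.70 ± 1.58 (adjusted p = 0.471). The HFD libraries, 26 fragments in all, lay above the ND libraries, 7 in all. Their ratio was 3.34, with a 95% exact counting interval of 1.41 to 9.12 that leaves out the spread between mice. Without the filter on low counts the adjusted p of the Sult1e1 change was 0.0169. Sult5a1 changed by 1.06 ± 0.45 in WT (adjusted p = 0.109, and 0.0375 without WT HFD mouse 1), and WT HFD mouse 3, at 15.1 CPM, set most of it: without that library the change was 0.22 (adjusted p = 0.694). The same mouse also had the highest liver Sult1b1, 71.5 CPM, and the highest Sult1d1, 269 CPM, of all 12 liver libraries. In ob/ob liver 0 of 6 members passed by edgeR or by DESeq2, against 0.913% of all genes, and 1 of 6, Sult1d1, had an unadjusted p under 0.05. The estimates there were 0.87 ± 0.42 for Sult1e1 (adjusted p = 0.378, or 0.27 with an adjusted p of 0.875 without ob/ob HFD mouse 2) and 0.67 ± 0.22 for Sult1d1 (adjusted p = 0.187). Without the count filter both had an adjusted p below 0.05 by edgeR (2.32e-09 for Sult1e1 and 1.90e-06 for Sult1d1), at nearly the same estimates (0.85 and 0.66). The Sult1e1 libraries of the 2 diets overlapped, and 1 mouse set most of its estimate. The small p-value of Sult1e1 is therefore not read as a diet effect. For Sult1d1 the diets did not overlap, at 74.3 to 116 CPM on ND and 129 to 182 CPM on HFD. Its estimate was 0.50 to 0.86 when 1 library was left out (adjusted p from 0.0718 to 0.459 by edgeR, with the filter). Both calls turn on the filter setting, so the Sult1d1 call is not read either.

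In epididymal fat Sult1e1 ran the other way from liver. WT ND fat had the highest group mean of any tissue, with 56.7, 52.3 and 66.6 CPM. It was 2.68, 13.2 and 9.06 CPM in WT HFD fat. The ob/ob ND libraries held 0.384, 1.38 and 0.225 CPM and the ob/ob HFD libraries 1.89, 0.553 and 1.42 CPM. All 6 ob/ob libraries lay below all 6 WT libraries. The genotype difference was -4.55 ± 0.44 as the mean over diets, -6.41 ± 0.64 on ND and -2.69 ± 0.60 on HFD (description, no test). Sult1a1 was lower in ob/ob on ND (-1.18 ± 0.35) and higher on HFD (1.26 ± 0.35), and Sult5a1 was lower on ND (-1.52 ± 0.42) with a difference of -0.05 ± 0.43 on HFD. In this contrast 35.9% of 15676 genes passed an adjusted p of 0.05 (20.6% higher and 15.2% lower), and of the 3 members tested only Sult1e1 did, from which nothing is read.

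In WT fat 3 of the 3 members that passed the count filter fell on HFD, where 58.9% of all genes changed. Sult1e1 fell by 2.81 ± 0.49 on the log2 scale, or 7.00-fold (adjusted p = 0.000535 by edgeR). Sult1a1, the phenol sulfotransferase, fell from 227, 182 and 158 CPM to 18, 32.5 and 55.5 CPM, a change of -2.42 ± 0.36 (adjusted p = 0.000203). Sult5a1 fell from 7.35, 5.86 and 6.44 CPM to 1.61, 2.15 and 4.17 CPM, a change of -1.30 ± 0.42 (adjusted p = 0.0193). In each of the 3 genes no HFD library reached the lowest ND library. How often that holds over all genes was not counted, so nothing is read from it. The Sult5a1 call was lost without WT HFD mouse 1 (adjusted p = 0.0761), WT HFD mouse 2 (adjusted p = 0.0736) or WT ND mouse 1 (adjusted p = 0.0582).

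In ob/ob fat no member passed for diet. Sult1a1 held 56.7, 108 and 86 CPM on ND and 103, 72.4 and 78 CPM on HFD, a change of 0.02 ± 0.34 with a 95% interval of -0.74 to 0.77. The estimate was 0.91 ± 0.81 for Sult1e1 (95% interval -0.86 to 2.68), or 2.05 without ob/ob ND mouse 2 (adjusted p = 1), and 0.16 ± 0.43 for Sult5a1 (-0.79 to 1.11). By edgeR 0 of 3 members passed, as did 0% of all genes, and by DESeq2 also 0 of 3, with 0 of 3 at an unadjusted p under 0.05. The difference between the diet effects was 3.72 ± 0.93 for Sult1e1 (adjusted p = 0.00911), 2.44 ± 0.49 for Sult1a1 (adjusted p = 0.00291) and 1.47 ± 0.60 for Sult5a1 (adjusted p = 0.0728). Hence 2 of 3 members passed, against 40.1% of all genes. Without ob/ob ND mouse 2 the difference for Sult1e1 was 4.82 (adjusted p = 0.00539). For Sult5a1 the adjusted p was 0.0180 without WT HFD mouse 3, 0.0295 without ob/ob HFD mouse 2 and 0.0447 without ob/ob ND mouse 2.

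**Figure D2:**
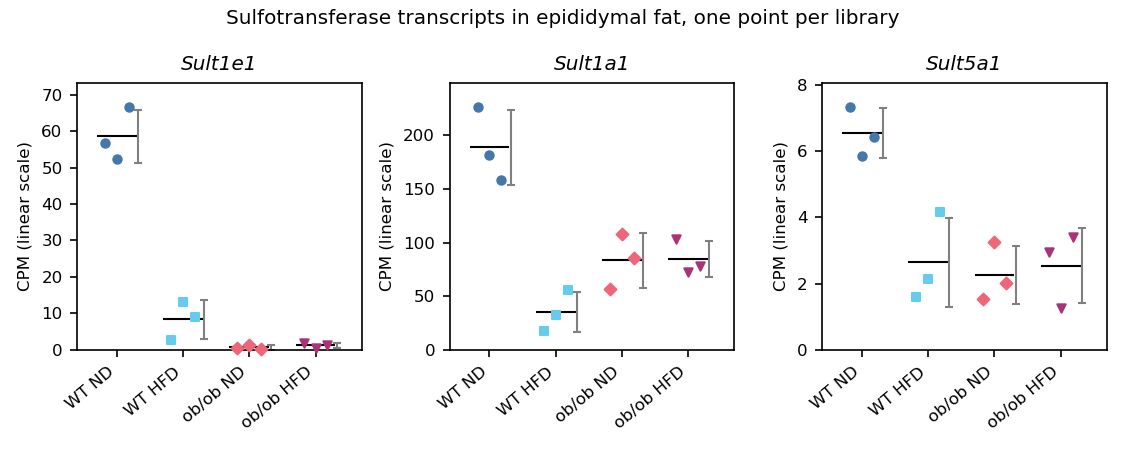
CPM on a linear axis in each epididymal fat library for Sult1e1, Sult1a1 and Sult5a1, by group (horizontal line, mean; grey bar, SD over 3 libraries). For all 3 genes the 3 WT ND libraries lie highest, and WT HFD is the lowest group for Sult1a1 at 18 to 55.5 CPM.

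Markers of adipocytes and of other cell types also differed between the groups, not always in the order of the sulfotransferases. The share of all genes that passed was 58.9% for diet in WT fat. For genotype in fat 20.6% were higher and 15.2% lower in ob/ob. The 15 adipocyte markers summed to 62064 to 79728 CPM in WT ND fat, 5104 to 17944 in WT HFD, 18125 to 26720 in ob/ob ND and 20883 to 27845 in ob/ob HFD, and no marker was at 0. In WT mice 14 of the 15 fell on HFD, with a median log2 fold change of -2.98, beside -2.81 for Sult1e1 and -2.42 for Sult1a1. The 16 macrophage markers summed to 2600 to 2765 CPM in WT ND, 16210 to 27955 in WT HFD, 10025 to 18053 in ob/ob ND and 13674 to 19202 in ob/ob HFD, and 13 of 16 rose on HFD in WT. On ND the adipocyte markers had a median of -1.68 for ob/ob minus WT, beside -6.41 for Sult1e1, -1.18 for Sult1a1 and -1.52 for Sult5a1. The 10 mesothelial markers all fell in ob/ob fat (median -2.12), and their sum was 335 to 1310 CPM in WT and 37.6 to 527 CPM in ob/ob. Of the progenitor and fibroblast markers 11 of 15 tested fell in ob/ob (median -0.78), Dlk1 being at 0. Their sums were 6722 to 9234 CPM in WT ND, 8622 to 9503 CPM in WT HFD and 4367 to 5733 CPM in ob/ob. The part of these cell types in the sulfotransferase values was not tested.

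The other members were near 0 in fat. Sult1b1 had 9 fragments over the 12 fat libraries, Sult1c2 had 3 and Sult1d1 had 39, of which 21 came from WT ND mouse 2. Sult3a1 had 0, which allows up to 3 fragments.

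Sult1e1 was also counted in aorta and skeletal muscle, and there too it was lower in ob/ob. These libraries were not used to choose the genes, but they come from the same mice. In aorta the WT ND libraries held 2.08, 9.94 and 2.08 CPM and the WT HFD libraries 1.04, 3.07 and 1.04 CPM. The ob/ob ND libraries held 0.145, 0.559 and 0.0583 CPM and the ob/ob HFD libraries 0.379, 0.288 and 0.191 CPM. Genotypes did not overlap, and Sult1e1 fell by 3.43 ± 0.60 on the log2 scale, or 10.8-fold (adjusted p = 0.000822 by edgeR). The WT ND library with 9.94 CPM, mouse 2, also had the highest sums of mesothelial markers, 1352 CPM against 83.7 to 606 CPM in the other 11, and of progenitor markers, 5344 CPM against 1401 to 3058 CPM. The 15 adipocyte markers of aorta, none at 0, summed to 25111 to 38070 CPM in WT ND, 25252 to 26342 in WT HFD, 22658 to 26794 in ob/ob ND and 24082 to 26700 in ob/ob HFD. The part of these cell types in the Sult1e1 values was not tested. Without WT ND mouse 2 the genotype difference in aorta was -2.85 (adjusted p = 0.000463), and without ob/ob ND mouse 2 it was -4.02 (adjusted p = 0.00106). On ND alone the difference was -4.27 ± 0.83 (adjusted p = 0.00281) and on HFD -2.59 ± 0.87 (adjusted p = 0.0592), and the difference between these did not pass (1.68 ± 1.32, adjusted p = 0.609).

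In skeletal muscle Sult1e1 held 5.54, 0.355 and 2.25 CPM in WT ND, 0.649, 0.965 and 2.88 CPM in WT HFD, 0, 0.184 and 0.0480 CPM in ob/ob ND and 0.953, 0 and 0.363 CPM in ob/ob HFD. The groups overlapped in single libraries, and Sult1e1 fell by 3.45 ± 0.89 (adjusted p = 0.00996), or changed by -4.09 without ob/ob ND mouse 2 (adjusted p = 0.0148). On ND alone the change was -5.08 ± 1.36 (adjusted p = 0.0137) and on HFD -1.83 ± 1.12 (adjusted p = 0.376), while the difference between these 2 did not pass (3.25 ± 1.80, adjusted p = 0.478). Muscle adipocyte markers went the other way, from 3542 to 17886 CPM in WT to 8574 to 34871 CPM in ob/ob, and mesothelial markers stayed at 1.60 to 9.02 CPM in all 12 libraries.

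Heart held 11 Sult1e1 fragments in 12 libraries, hypothalamus 4 and hippocampus 2, too few for a test. Ordered by CPM per kilobase of transcript, which sets aside gene length but not the separate scaling of each tissue, the Sult1e1 groups ran from WT ND fat (47.1 ± 5.93, SD, n = 3) to ob/ob HFD liver (37.7 ± 25.3) and ob/ob ND liver (20.7 ± 8.32). Each of these 3 overlapped its neighbour. The fourth, WT HFD fat (6.71 ± 4.28), did not overlap ob/ob ND liver, and from there down each group overlapped its neighbour through WT ND aorta (3.78 ± 3.66), WT ND muscle (2.19 ± 2.11) and ob/ob HFD fat (1.04 ± 0.547) to the brain.

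**Figure D3:**
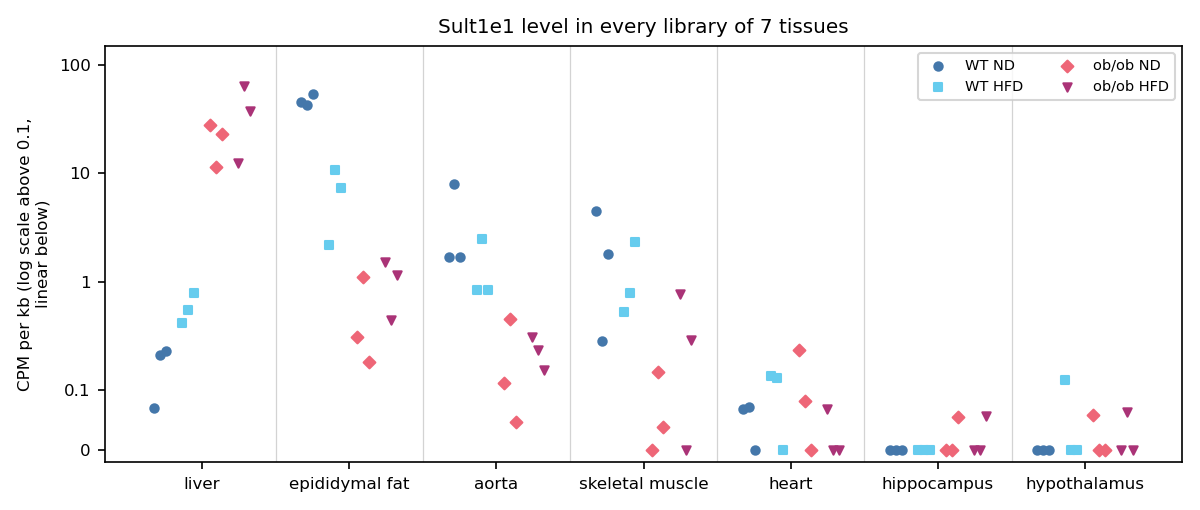
Sult1e1 level (CPM per kilobase of transcript, log scale above 0.1 and linear below) in each of the 84 libraries, by tissue and group. In liver the ob/ob libraries lie above WT, in fat and aorta they lie below WT without overlap, in muscle the genotypes overlap, and heart, hippocampus and hypothalamus hold 0 to 3 fragments per library.

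Sult1a1 was counted in every tissue and was higher in ob/ob in most of those outside fat. In hippocampus it was 7.21 to 13 CPM in WT and 14.5 to 20.6 CPM in ob/ob, with no overlap (0.82 ± 0.12, adjusted p = 0.00274 by edgeR). Hypothalamus gave 7.99 to 13.2 CPM against 13.8 to 20.5 CPM, again with no overlap (0.74 ± 0.12, adjusted p = 0.00220). Aorta gave 45.3 to 79.5 CPM against 74.8 to 88.1 CPM, overlapping (0.40 ± 0.08, adjusted p = 0.00242). The aorta difference was 0.11 ± 0.12 on ND (adjusted p = 0.483) and 0.68 ± 0.12 on HFD (adjusted p = 0.00301), and the difference between these did not pass (0.57 ± 0.16, adjusted p = 0.171). Heart gave 36.9 to 52.7 CPM against 46.7 to 61.6 CPM and missed the threshold (0.24 ± 0.09, adjusted p = 0.0507 by edgeR and 0.05, just inside it, by DESeq2). It passed without WT HFD mouse 1 (adjusted p = 0.0474), WT HFD mouse 2 (adjusted p = 0.0374), WT ND mouse 1 (adjusted p = 0.0293) or ob/ob HFD mouse 3 (adjusted p = 0.0483). The background for these genotype contrasts was 13.9% of genes in hippocampus, 15.5% in hypothalamus, 39.6% in aorta and 30.1% in heart.

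In skeletal muscle Sult1a1 was 30.4, 37.8 and 36.7 CPM in WT ND, 66.9, 74.8 and 45.5 CPM in WT HFD, 103, 82.2 and 106 CPM in ob/ob ND and 57.1, 155 and 113 CPM in ob/ob HFD. The genotype difference was 1.13 ± 0.23 (adjusted p = 0.00355), where 48.6% of all genes passed. It was 1.47 ± 0.32 on ND (adjusted p = 0.00637) and 0.80 ± 0.32 on HFD (adjusted p = 0.238), and the difference between these did not pass (-0.67 ± 0.45, adjusted p = 0.535). Sult1a1 was lowest in the library with the smallest adipocyte marker sum and highest in the one with the largest. The WT ND libraries had sums of 3542, 4621 and 7249 CPM and the WT HFD libraries 15632, 17886 and 11645 CPM. The ob/ob ND libraries had 22875, 19791 and 23420 CPM and the ob/ob HFD libraries 8574, 34871 and 22151 CPM. The ob/ob HFD library with the fewest adipocyte transcripts, mouse 1, also had the least Sult1a1 of the 6 ob/ob libraries, and mouse 2 had the most of both. Adipose content was not tested as a part of the genotype difference.

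**Figure D4:**
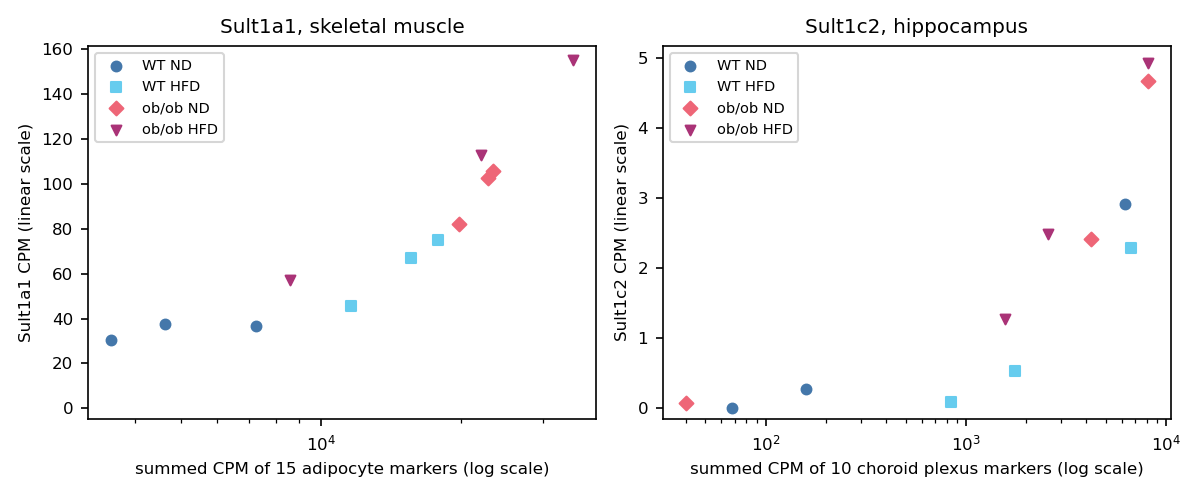
Left, Sult1a1 CPM in the 12 skeletal muscle libraries against the summed CPM of 15 adipocyte markers, and right, Sult1c2 CPM in the 12 hippocampus libraries against the summed CPM of 10 choroid plexus markers (x on a log scale, y linear, 1 point per library). In muscle Sult1a1 runs from 30.4 CPM at a sum of 3542 to 155 CPM at 34871, and in hippocampus Sult1c2 is at or below 0.28 CPM in the 3 libraries with the smallest sums.

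Sult5a1 was the other member with counts in nearly every tissue. It was lower in ob/ob aorta, 2.59 to 5.63 CPM in WT against 1.75 to 4.32 CPM in ob/ob (-0.67 ± 0.23, adjusted p = 0.0374 by edgeR), with overlapping groups. That call was lost in 8 of the 12 fits that left out 1 library: WT HFD mouse 2 or 3, WT ND mouse 2 or 3, ob/ob HFD mouse 2 or 3 and ob/ob ND mouse 1 or 3, with adjusted p from 0.0535 to 0.0917. In muscle it changed by -0.30 ± 0.29 (adjusted p = 0.400), in heart by -0.13 ± 0.28 (adjusted p = 0.762) and in hippocampus by 0.46 ± 0.45 (adjusted p = 0.538), while hypothalamus had 37 fragments in all. Members tested that passed for genotype were 3 of 3 in aorta (39.6% of all genes passed) and 2 of 3 in muscle (48.6%). They were 1 of 3 in hippocampus (13.9%), 1 of 1 in hypothalamus (15.5%) and 0 of 2 in heart (30.1%). In heart 1 of 2 passed by DESeq2 and 1 of 2 had an unadjusted p under 0.05.

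**Figure D5:**
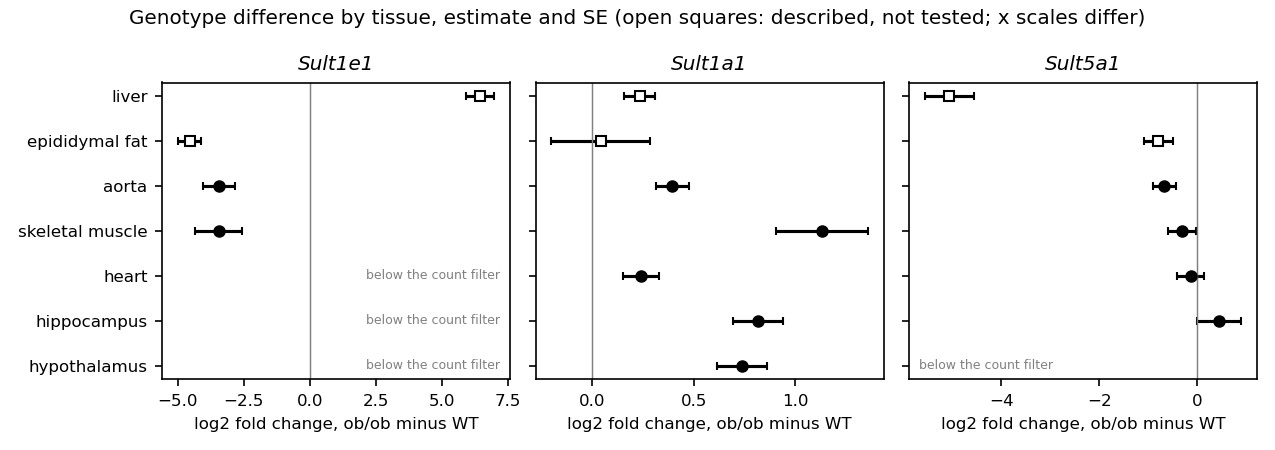
Log2 fold change of ob/ob minus WT (mean over diets, bars are the SE, scales differ between panels) for Sult1e1, Sult1a1 and Sult5a1 in each tissue where the gene passed the count filter. Sult1e1 is 6.47 in liver and -4.55, -3.43 and -3.45 in fat, aorta and muscle, and Sult1a1 is between 0.04 and 1.13 in all 7 tissues.

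Sult1c2 was the only other member to pass the count filter outside liver, in hippocampus, where its libraries scattered widely within every group: 2.91, 0.280 and 0 CPM in WT ND, 2.28, 0.536 and 0.0857 CPM in WT HFD, 0.0780, 2.41 and 4.67 CPM in ob/ob ND and 2.49, 1.28 and 4.93 CPM in ob/ob HFD. The genotype difference was 1.33 ± 0.86 (adjusted p = 0.333), or 2.75 without WT ND mouse 1 (adjusted p = 0.111) and 2.10 without WT HFD mouse 1 (adjusted p = 0.182). A list of 10 markers of the choroid plexus was added after these values were seen. Their sum was 6214, 159 and 68 CPM in WT ND, 6685, 1748 and 843 CPM in WT HFD, 39.9, 4220 and 8074 CPM in ob/ob ND and 2566, 1571 and 8108 CPM in ob/ob HFD. In each of the 4 groups the library with the highest Sult1c2 was also the one with the highest sum. In hypothalamus, where the sum was 32 to 107 CPM, Sult1c2 had 7 fragments over 12 libraries. Its part in the spread of Sult1c2 was not tested.

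Outside liver and fat diet effects on the members were few. In WT aorta Sult1a1 fell on HFD from 64.6, 71.3 and 79.5 CPM to 53.5, 54.5 and 45.3 CPM, a change of -0.49 ± 0.12 (adjusted p = 0.0343 by edgeR), 1 of 3 members against 4.21% of all genes. It lost its call without any 1 of the 3 WT HFD mice (adjusted p = 0.105, 0.0660 and 0.158 for mice 1 to 3), WT ND mouse 2 (adjusted p = 0.0686), WT ND mouse 3 (adjusted p = 0.104) or ob/ob ND mouse 2 (adjusted p = 0.0509). Sult1e1 in WT aorta changed by -1.43 ± 0.65 (adjusted p = 0.221). In the other 14 pairs of tissue and diet contrast outside liver and fat no member passed by edgeR. The share of all genes that passed there was 0% for diet in ob/ob aorta, 0.427% for the difference of diet effects in aorta, 0.256%, 0.0219% and 0% for diet in WT, diet in ob/ob and their difference in heart, and 0% for all 3 in muscle, hippocampus and hypothalamus. Counted with ob/ob liver, ob/ob fat and the heart genotype contrast, the 17 pairs with no member passing held 44 member tests, of which 4 had an unadjusted p under 0.05 and 1 was called by DESeq2.

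Nearly all fragments of Sult1b1 (5734 of 5750), Sult1d1 (22750 of 22793) and Sult3a1 (57 of 60) came from liver. Over all 12 liver libraries the mean level per kilobase was 172 CPM for Sult1a1, 61.5 for Sult1d1, 14.8 for Sult1e1, 13.6 for Sult1b1, 5.54 for Sult1c2, 0.679 for Sult5a1 and 0.337 for Sult3a1. Outside liver, the largest total was 39 fragments for Sult1d1, in fat, 9 for Sult1b1, also in fat, and 2 for Sult3a1, in hypothalamus. Sult1a1 was the most abundant member per kilobase in each of the 7 tissues, from 8.83 CPM per kilobase in hypothalamus to 172 in liver.

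Among the 14 other sulfotransferase genes, only 3 passed the count filter in liver. For genotype 22.1% of all genes were higher and 20.7% lower in liver, and 20.6% were higher and 15.2% lower in fat. Sult2a8, an enzyme that sulfates bile acids, fell from 1111 to 1198 CPM in WT ND and 501 to 1233 CPM in WT HFD to 34.8 to 68.2 CPM in ob/ob ND and 38 to 105 CPM in ob/ob HFD (-3.95 ± 0.29, adjusted p = 6.47e-07 by edgeR). Sult2a2, a hydroxysteroid sulfotransferase, was seen almost only in ob/ob ND liver, at 1.03, 0.773 and 2.93 CPM against at most 0.0749 CPM in the other 9 libraries, and it passed (adjusted p = 0.0133). Sult2a7 did not pass (-0.28 ± 0.40). Without ob/ob HFD mouse 1, 2 of these 3 were called lower, against 1 with all libraries. The Sult2a genes are near-identical copies, so their single values are uncertain. In fat Sult2b1, a cholesterol sulfotransferase, rose from 0.160 to 0.690 CPM in WT to 0.691 to 1.65 CPM in ob/ob (1.68 ± 0.34, adjusted p = 0.00285), 1 of 3 tested.

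Around Sult1e1 on chromosome 5 lie 45 genes whose starts are within 500 kb, and 7 of them reached an average of at least 1 CPM in liver or fat. These are Sult1e1, Sult1b1, Sult1d1 and the glucuronosyltransferases Ugt2b5, Ugt2b37, Ugt2a3 and Ugt2b38. Ugt2b5 fell in ob/ob liver, from a mean of 1803 CPM in WT ND and 1158 CPM in WT HFD to 514 and 594 CPM in ob/ob (-1.39 ± 0.16, adjusted p = 1.53e-05). Ugt2a3 (-0.34 ± 0.16), Ugt2b38 (-0.68 ± 0.36) and Ugt2b37 (-0.57 ± 0.41) did not pass. Sult1e1 was thus the single gene of this neighbourhood with a higher estimate in ob/ob liver among those 7.

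Genes that supply sulfate moved in both directions. Of all genes, 22.1% were higher and 20.7% lower for genotype in liver. In fat 20.6% were higher and 15.2% lower for genotype, and 58.9% changed in either direction on HFD in WT. Of 13 genes for sulfate uptake and PAPS supply 12 were tested in liver, 3 rose and 4 fell (median -0.05, against 0.02 for all genes). The count of those that fell was 1 or 2 in 8 of the 12 fits that left out 1 library (WT ND mouse 1 or 3, WT HFD mouse 1 or 2, ob/ob ND mouse 2 or 3, ob/ob HFD mouse 2 or 3) and 2 without the count filter. Slc26a1, a sulfate carrier, fell by 0.68 ± 0.08 and Slc26a2, another, rose by 0.49 ± 0.13. Slc35b3, which carries PAPS into the Golgi, rose by 0.49 ± 0.09 and Impad1, a phosphatase of PAP, rose by 0.39 ± 0.08. Papss2, a PAPS synthase, was -0.30 ± 0.10 in liver (adjusted p = 0.0277). In fat 3 rose and 3 fell of 12 for genotype, while on HFD in WT 8 fell and 2 rose (median -0.80, against -0.04 for all genes). Of the list of sulfatases, which take sulfate off, and genes that activate them, 4 of 10 tested rose in ob/ob liver and 0 fell. They were the sulfatases Arsg (1.01 ± 0.10), Galns (1.07 ± 0.14) and Arsa (0.45 ± 0.10), and the activator Sumf1 (0.24 ± 0.06). In fat 3 rose and 4 fell of 12 on that list, with Arsi at -2.24 ± 0.26.

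Genes of oestrogen and androgen metabolism fell more than they rose in ob/ob liver, 13 against 6 of 22 tested (median -0.32). The shares of all genes were 20.7% lower and 22.1% higher. Akr1c6 (-1.39 ± 0.09) and Srd5a1 (-1.23 ± 0.10), which reduce steroids, and Hsd3b2 (-1.35 ± 0.15), which oxidises them, fell, and Hsd17b13, a lipid droplet enzyme, rose by 0.82 ± 0.09. Esr1, the oestrogen receptor, rose by 0.40 ± 0.11 in liver (adjusted p = 0.00864), with 10.3 to 14.7 CPM in WT and 13.5 to 18.8 CPM in ob/ob. In fat Esr1 fell by 0.55 ± 0.16 in ob/ob (adjusted p = 0.0193) and by 1.80 ± 0.23 on HFD in WT (adjusted p = 6.56e-05). A list of other conjugating enzymes held sugar transferases of the Ugt families, glutathione transferases and others such as Nat2. Of these, 13 fell and 4 rose of 27 in liver (median -0.34). Ugt3a1 was at -0.88 ± 0.09, Ugt3a2 at -0.73 ± 0.08 and Gstm3 at 2.55 ± 0.21. In WT fat 14 of 18 fell on HFD, where 58.9% of all genes passed in either direction.

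Several sulfotransferases, Sult3a1 and Sult2a2 among them, are known as transcripts of female rather than male mouse liver. A list of 18 such genes included Sult1e1, and of the 14 tested 11 rose and 0 fell in ob/ob liver (median 3.26, against 0.02 for all genes). Without Sult1e1, which the genotype contrast had chosen, 10 of 13 rose and 0 fell (median 2.95), and 1 fell when ob/ob HFD mouse 2 was left out. Cyp2a4, a steroid hydroxylase, was 0.694 to 2.09 CPM in WT ND, 3.58 to 16 CPM in WT HFD, 76.8 to 163 CPM in ob/ob ND and 35.9 to 99.1 CPM in ob/ob HFD (4.58 ± 0.42). Ntrk2 (3.64 ± 0.27) and Cyp17a1 (2.14 ± 0.28) rose as well. Of 18 transcripts known to be higher in male liver 17 fell and 0 rose (median -1.89), where 20.7% of all genes fell and 22.1% rose. Elovl3, a fatty acid elongase, was 481 to 866 CPM in WT ND, 98.3 to 145 CPM in WT HFD and 11.4 to 31.9 CPM in ob/ob (-4.00 ± 0.23), and Cyp7b1, an oxysterol hydroxylase, fell by 3.61 ± 0.20 while Mup3, a urinary protein, changed by -3.59 ± 0.26. On HFD in WT liver 7 of the 18 male-biased genes fell, and of the female-biased genes 5 rose and 1 fell. Of all genes 21.8% passed for that contrast and 6.17% for the difference of diet effects between genotypes. The diet effect in ob/ob exceeded that in WT for 7 male-biased genes, Elovl3 among them (3.07 ± 0.43), and was below it for 4 female-biased ones, Cyp2b9 among them (-6.97 ± 0.99).

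Of 25 transcription factors known to act on sulfotransferase or sex-biased liver genes, 12 rose and 5 fell in ob/ob liver. The shares of all genes were 22.1% higher and 20.7% lower. Nr1i3, the receptor CAR, was 61.4 to 83.2 CPM in WT and 16.7 to 36.9 CPM in ob/ob, with no overlap (-1.48 ± 0.16, adjusted p = 1.46e-05). Nr1h3, the oxysterol receptor LXR alpha, fell by 0.46 ± 0.06, and Nfe2l2, the oxidative stress factor, rose by 0.86 ± 0.09. Nr1i2, the receptor PXR, did not pass (0.11 ± 0.05, adjusted p = 0.126). Of 15 targets of these receptors 7 rose and 2 fell, with Gstm3, named above, and Srebf1 (1.53 ± 0.17) rising. Thyroid hormone genes, of interest for Sult1b1, gave 2 higher and 4 lower of 9 tested. Thrsp rose by 1.20 ± 0.15, while Dio1 fell by 0.94 ± 0.14 and Thrb by 0.84 ± 0.11. The diet effect on Thrsp was lower in ob/ob than in WT (interaction -2.64 ± 0.30).

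The hepatocyte marker sum in liver was 108864 to 151250 CPM in WT and 90966 to 126277 CPM in ob/ob, with 9 of 16 markers lower and 2 higher in ob/ob (median -0.26). Of all genes 20.7% were lower and 22.1% higher in ob/ob liver. Of 16 macrophage markers 6 were higher and 0 lower in ob/ob liver (median 0.30), with sums of 161 to 548 CPM in WT and 385 to 862 CPM in ob/ob. Of 6 mesothelial markers tested 3 were higher and 0 lower, and the sum of the whole list of 10 was 216 to 235 CPM in WT ND, 450 to 532 CPM in WT HFD and 454 to 673 CPM in ob/ob. The adipocyte marker sum was 4400 to 6188 CPM in WT and 1471 to 3987 CPM in ob/ob, with 6 of 12 tested higher and 3 lower. No marker of these 4 lists was at 0 over the liver libraries. Their part in the sulfotransferase differences was not tested.

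Genes with the most similar profile to Sult1e1 were sought by Pearson correlation of log2 CPM over the 12 liver libraries, among 10278 genes. The 5 closest were Flvcr1, Psmd8, Shc2, Amot and Cd2ap (r = 0.977 to 0.968), and the 3 most opposite were Gphn, Ces2e and Slc31a1 (r = -0.988 to -0.983). Flvcr1, a haem and choline transporter, had means of 2.50, 3.18, 4.75 and 5.34 CPM in WT ND, WT HFD, ob/ob ND and ob/ob HFD, far smaller steps than those of Sult1e1. Over the 12 fat libraries, among 12058 genes, Naprt, Gstt3, Bcs1l, Ackr2 and Zfhx4 were closest (r = 0.97 to 0.965) and Gorasp2, Prpf18 and Brap most opposite (r = -0.972 to -0.964). These correlations share the 4 groups and follow the difference between them. Over the 28 group means the 3 closest genes were Inmt, Gpt and Adh1 for Sult1a1 (highest r = 0.975), Slc10a2, Cfhr3 and Xkr9 for Sult1b1 (0.998), Cldn2, Nlrp6 and Wfdc2 for Sult1c2 (0.969), Cyp2a4, Slc22a27 and Cyp2a22 for Sult3a1 (0.937) and Bud31, Mfsd8 and Cfd for Sult5a1 (0.825). Those points share tissue and, for liver members, a level near 0 in the other tissues.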

How the data were processed

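Fragment counts per gene, in whole numbers, were deposited by the authors in 1 table. Per the file headers it was made with featureCounts 1.5.1 on paired-end alignments, with no strand option, so reads from antisense partners cannot be told apart. Per the submitters' processing notes the tools were Trimmomatic 0.36, HISAT2 2.0.5 and featureCounts 1.5.0-p2, with build GRCm38. The deposited gene length was used only for CPM per kilobase. Of 49671 genes 49326 had a symbol, and 0 value columns belonged to no sample. The labels give the extraction for heart tissue in all samples.

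In each tissue the 12 libraries were fitted together with edgeR 4.0.16 (R 4.3.3): filterByExpr (minimum count 10, minimum total 15), TMM scaling, a mean per group and the quasi-likelihood test, with Benjamini-Hochberg adjustment over all genes of a tissue and contrast and a threshold of 0.05. The genotype difference is the mean over diets of ob/ob minus WT. The SE of a fold change is its size over the square root of the test's F, and its 95% interval uses the t quantile at the test's degrees of freedom. Groups came from the sample titles, and 6 titles spell the high-fat diet HDF. Intervals of count ratios cover counting error only, at 95%. On simulated liver counts with 13246 genes, 98% of genes changed 2-fold were recovered for genotype and 93% for diet in WT, and on simulated fat counts with 15676 genes 92% and 78%. Genes of low mean level were not among those changed. The shares thus do not cover low members such as Sult5a1 in liver and fat. Nor do they cover diet in WT for a gene near 0 there, as Sult1e1 in liver. DESeq2 1.42.0, its size factors, no count filter, a replicate block and leaving out each library were the alternatives. Same-numbered libraries did not deviate together.

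The members, gene lists and naming rule were chosen with earlier results of these data known, and the choroid plexus list was added later. Named from each list were up to 4 genes with the smallest p for genotype and up to 2 for the difference of diet effects, in liver and in fat, besides neighbours of Sult1e1 and the genes most like a member. Papss2, Nr1i2, Sult2a7 and Esr1 in liver fall outside that rule and were named after their values were seen. The genes most like Sult1d1 are not reported here.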

Additional observations from a re-analysis of the deposited data

Results flagged for a closer look

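The effect of diet differed between genotypes in 3 cases, each by the interaction test. These tests use libraries that also served to choose the genes. In epididymal fat the HFD effect on Sult1e1 was higher in ob/ob than in WT by 3.72 on the log2 scale, and that on Sult1a1 by 2.44. In liver the HFD effect on Sult1c2 was lower in ob/ob than in WT (-2.09). Single libraries were not screened for outlying values, since groups hold 3 libraries.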

How the results depend on the processing

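Without the filter on low counts 4 members passed for diet in WT liver (1 with it), 2 for diet in ob/ob liver (0 with it), 2 for the difference of diet effects in liver (1 with it), 2 for diet in WT aorta (1 with it) and 1 for genotype in heart (0 with it). The share of all genes that passed without the filter was 13.3%, 3.95%, 6.05%, 6.03% and 16.1% in those 5 contrasts, against 21.8%, 0.913%, 6.17%, 4.21% and 30.1% with it. The cause was not tested, and no effect is read from the calls added without the filter. The heart count was 1 also by DESeq2, with DESeq2 size factors in edgeR and with the replicate block. Correlations of same-numbered libraries ran from -0.73 to 0.53, with medians from -0.095 to 0.063 over tissues. In liver and in aorta 7 of 12 libraries were closest to one of their own number in another group, against 1 to 5 in the other tissues. Pairing by replicate number is thus left undecided in liver and aorta. The replicate block changed the call of no other member. Of the list counts for genotype in fat it moved 4: thyroid genes lower to 1 (from 2), adipocyte markers lower to 2 (from 4), progenitor markers higher to 1 (from 0) and choroid plexus markers lower to 0 (from 1). Leaving out 1 library gave 1 to 2 members for diet in WT liver, 0 to 1 for diet in WT aorta, 0 to 1 for genotype in heart and 0 to 1 for diet in WT muscle (Sult1a1, without ob/ob HFD mouse 1). Directions turned in differences that did not pass the test when 1 library was left out: the diet effect in ob/ob liver ranged from -0.11 to 0.060 for Sult1a1 and -0.20 to 0.19 for Sult1b1, that in WT liver from -0.17 to 0.33 for Sult1d1, the difference in liver from -0.95 to 1.09 for Sult5a1, and the diet effect in ob/ob fat from -0.19 to 0.24 for Sult1a1 and -0.10 to 0.51 for Sult5a1. Sult1e1 in liver kept a genotype difference of 6.17 to 6.67. Sult3a1 was below the count filter in every tissue.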
